A study of Mus musculus with 2 samples.

Results

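Of the 20652 genes named on the array, 10 make up the machinery described here: the transcription factor genes Srebf1, Mlxipl, Mlx, Nr1h3, Nr1h2 and Usf1 and the genes Scap, Insig2, Mbtps1 and Mbtps2, whose products carry, hold back and cut SREBP proteins. They were picked by name, as every probe that is not a control and whose RefSeq transcript belongs to one of these symbols, which gave 15 probes, and all 10 were among the 16346 genes measured. Total RNA from the livers of 3 mice was pooled in each of 2 groups, fasting and feeding, and each pool was read on 1 Agilent Whole Mouse Genome array with the Cy3 dye, so nothing replicates the comparison and no test could be run. The study's figure legend states replicates for this microarray, while the labels and files used here give 1 array of pooled RNA per group. The mice were male, and the labels name no transgene or drug. The labels do not give their strain or age; the methods describe male C57BL/6J mice of about 8 to 12 weeks for the study as a whole. The fasting group is labelled as fasted for 16 h in one field and for 14 to 16 h overnight in another. The feeding group is labelled as fed ad libitum in one field and as given food after the fast in another, so the time since the last meal is not known. Each group is a pool, and the spread between mice was not measured.

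Hepatocytes turn a meal into fat under the control of 3 transcription factor systems. SREBP1, the product of Srebf1, is made as a precursor in the membrane of the endoplasmic reticulum, where SCAP escorts it and the INSIG proteins retain it; once released to the Golgi it is cut by the site-1 and site-2 proteases, the products of Mbtps1 and Mbtps2, and the freed fragment enters the nucleus and switches on lipogenic genes. ChREBP, the product of Mlxipl, answers to glucose metabolites and binds DNA as a dimer with Mlx. The oxysterol receptors LXRα (Nr1h3) and LXRβ (Nr1h2) bind DNA with RXR and are known activators of Srebf1, and USF1 binds E-boxes in lipogenic promoters.

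Srebf1 had the largest difference of the 10 genes. Upon feeding Srebf1 was 8.90-fold higher. Of the ChREBP dimer genes, Mlxipl was 1.77-fold higher on its brighter probe and 1.11-fold higher on the other. Mlx was 1.67-fold higher. Insig2 was 1.75-fold lower on one probe and 2.60-fold lower on the other. Nr1h3 was 1.25-fold to 1.73-fold higher depending on the probe, while Nr1h2, Scap, Mbtps1 and Mbtps2 differed by less than 1.3-fold on their brightest probes. Usf1, a dim gene, was 1.56-fold higher. The threshold of 2-fold is that of the study's methods and was applied here to the brightest probe of each gene. Of the 10 genes 1 was past it, Srebf1, and it was higher upon feeding. Over all genes measured 8.05% were past 2-fold, 3.29% higher and 4.77% lower, so a count of 1 in 10 is near this background and says nothing about the set as a whole. Scaling to the array medians, an alternative to quantile normalization, put Mlxipl past 2-fold as well.

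The RefSeq promoter table of the assembly GRCm38.p6 lists 18 start sites for the 10 genes, each as a window of 300 bases, from 250 before to 50 after the start. Srebf1 has 3, Mlxipl 2 and Insig2 3, and these genes are known for alternative first exons: SREBP-1a and SREBP-1c, the latter being the main form in liver, and ChREBP-alpha and the shorter ChREBP-beta, come from different starts. Each probe is listed for a RefSeq transcript, but whether it also reads the other transcripts of its gene is not given in the sources used here. The windows printed next, 2 for each gene, belong to Srebf1, Mlxipl and Insig2, the members with the largest differences on their brightest probes. A further window of Srebf1 and of Insig2 is not printed. Capitals mark every match, on either strand, of 5 letter strings: CACGTG (the E-box of USF and of ChREBP with Mlx), TCACNCCAC (a sterol regulatory element), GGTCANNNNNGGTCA (a repeat bound by LXR with RXR), CCAAT (NF-Y) and GGGCGG (Sp1). The GC content of the printed windows runs from 46.0%, in the first Insig2 window, to 70.7%, in the second Srebf1 window. That Insig2 window is the only one of these 6 with 3 CCAAT matches.
Srebf1 (chr11:60220578-60220877, minus strand): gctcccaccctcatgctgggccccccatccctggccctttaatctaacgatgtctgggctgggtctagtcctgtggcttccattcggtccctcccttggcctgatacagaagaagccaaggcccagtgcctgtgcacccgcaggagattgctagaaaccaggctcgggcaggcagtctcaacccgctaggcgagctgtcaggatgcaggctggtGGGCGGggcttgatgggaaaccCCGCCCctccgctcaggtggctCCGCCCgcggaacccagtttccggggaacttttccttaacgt
Srebf1 (chr11:60210422-60210721, minus strand): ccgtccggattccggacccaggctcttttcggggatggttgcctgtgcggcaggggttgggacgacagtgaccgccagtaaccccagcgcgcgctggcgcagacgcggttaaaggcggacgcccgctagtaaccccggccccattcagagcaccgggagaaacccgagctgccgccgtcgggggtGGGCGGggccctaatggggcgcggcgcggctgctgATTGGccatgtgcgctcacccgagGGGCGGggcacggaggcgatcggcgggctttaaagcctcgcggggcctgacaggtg
Mlxipl (chr5:135089640-135089939, plus strand): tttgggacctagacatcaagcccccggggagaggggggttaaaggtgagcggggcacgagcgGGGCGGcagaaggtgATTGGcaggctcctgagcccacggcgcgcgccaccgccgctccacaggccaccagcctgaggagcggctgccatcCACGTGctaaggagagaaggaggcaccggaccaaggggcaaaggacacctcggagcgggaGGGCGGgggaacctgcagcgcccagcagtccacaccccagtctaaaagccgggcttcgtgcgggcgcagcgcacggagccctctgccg
Mlxipl (chr5:135106641-135106940, plus strand): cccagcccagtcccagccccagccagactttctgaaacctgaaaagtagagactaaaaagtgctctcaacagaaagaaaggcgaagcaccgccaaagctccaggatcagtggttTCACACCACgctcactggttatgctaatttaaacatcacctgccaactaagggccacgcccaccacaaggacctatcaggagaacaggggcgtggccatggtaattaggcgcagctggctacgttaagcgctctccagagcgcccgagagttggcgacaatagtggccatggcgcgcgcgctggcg
Insig2 (chr1:121332540-121332839, minus strand): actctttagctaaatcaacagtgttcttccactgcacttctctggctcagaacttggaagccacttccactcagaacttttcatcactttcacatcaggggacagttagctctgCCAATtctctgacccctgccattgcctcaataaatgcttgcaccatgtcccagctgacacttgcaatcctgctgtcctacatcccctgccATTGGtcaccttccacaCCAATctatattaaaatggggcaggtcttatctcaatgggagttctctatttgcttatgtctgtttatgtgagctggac
Insig2 (chr1:121327629-121327928, minus strand): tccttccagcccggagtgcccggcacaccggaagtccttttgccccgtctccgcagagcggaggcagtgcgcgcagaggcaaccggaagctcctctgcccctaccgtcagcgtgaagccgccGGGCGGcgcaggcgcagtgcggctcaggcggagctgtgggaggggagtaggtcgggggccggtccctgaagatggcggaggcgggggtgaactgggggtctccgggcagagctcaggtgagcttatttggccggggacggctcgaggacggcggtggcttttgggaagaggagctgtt

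In these windows the E-box of Mlxipl begins 98 bases before the start at chr5:135089640-135089939, and the sterol regulatory element match, TCACACCAC, begins 136 bases before the other start of the gene. The downstream Srebf1 window holds a CCAAT match on the opposite strand, 30 bases before the start, between Sp1 matches at 65 and 6 bases before it. Over all 18 windows, 4 held an E-box (Mlxipl, Mlx and both overlapping windows of Scap), against 7.15% of the 32851 windows of the table. The sterol regulatory element was in 1 of 18 and in 1.24% of all, the LXR repeat in 0 of 18 and in 0.0761% of all, CCAAT in 5 of 18 and in 37.4% of all, and GGGCGG in 10 of 18 and in 35.7% of all. Some windows of a gene overlap, and a match is a string of letters and not a binding site. The absence of a match says only that these letters are not in the window.

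The 2 arrays held the same number of spots and differed in background and in the share of spots well above it. Each held 44397 spots, 1377 of them controls, with 0 saturated. The share of transcript spots well above background was 63.1% on the fasting array and 72.3% on the feeding array. In that order, the median local background was 30 and 22, and the lowest probe signal well above background was 15.2 and 6.38. Values are processed signals, intensities from which the scanner software had subtracted the background, and differences are feeding minus fasting on the log2 scale after quantile normalization of the arrays, so that 1 unit is 2-fold. As the only measured error, the SD of a difference between single spots was taken from the 50 probes of most similar signal among 399 probes spotted 10 times on each array; it covers the measurement on the array and not the mice. Each member probe was 1 spot, and 14 of the 15 were well above background on both arrays. Local background at these spots ran from 20.0 to 44.5 upon fasting and from 18.0 to 24.5 upon feeding.

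The tissue label was checked against marker genes of the liver's cell types. None of the 8 hepatocyte markers was past 2-fold, and Alb, which encodes albumin, had signals of 159091 and 141790. The summed signal of the hepatocyte list was 752076 upon fasting and 638014 upon feeding. Sums are of processed signals not scaled between the arrays. The feeding array was dimmer, with a median processed signal of 52.8 against 61.5 on the fasting array. In the hepatocyte list Tat went from 106618 to 51969, a difference of -0.97 after normalization, while the list's median was -0.05. Of the other cell types, 0 of 6 Kupffer cell, 1 of 5 endothelial, 0 of 5 stellate and 0 of 4 cholangiocyte markers were past 2-fold, and the exception was Pecam1, lower by 1.04 on the log2 scale. The median of the endothelial list was -0.35 and that of the stellate list -0.70, with summed signals of 35701 and 26983, and of 38887 and 29575. The stellate median is the value of Des, which had signals of 14.5 and 8.50 and was not well above background upon fasting. The other stellate markers were Reln at -0.97, Col1a1 at -0.83, Dcn at -0.24 and Lrat at 0.24. The cholangiocyte list had summed signals of 2427 and 1720. Neither array had a signal well above background for the adipocyte genes Adipoq and Lep or the pancreas genes Cpb1 and Pnlip. The other 2 adipocyte markers summed to 129 and 212. The pancreas list was dim, with a summed signal of 60.1 upon fasting and 84.4 upon feeding, and its gene Prss2 was at least 2.59-fold higher. In pooled tissue, fewer cells of a type, less RNA per cell and a difference in single marker genes cannot be told apart. For the sums, the dimmer feeding array cannot be set apart from these either.

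**Figure D1:**
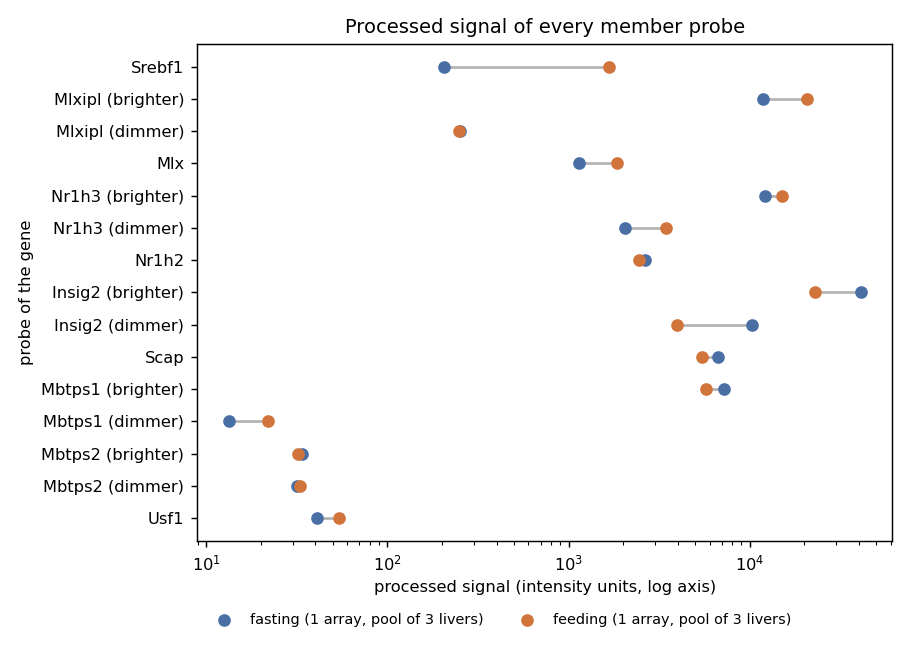
Processed signal (x axis, log scale, intensity units) of each of the 15 probes of the 10 genes (y axis), in the fasting pool and in the feeding pool (1 array each, no error bars). The probe of Srebf1 goes from 206 to 1677 and the dimmer probe of Insig2 from 10326 to 3949; distances between the points of a row can be read, but signals of different probes cannot be set against each other.

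Srebf1 was read by 1 probe, for the transcript NM_011480. Its signal was 206 in the fasting pool and 1677 in the feeding pool. The difference was 3.15 on the log2 scale, with a spot SD of 0.10, and 12 of the 16346 genes measured (0.0734%) had a larger increase. The gene was well above background on both arrays. Among the 14515 genes with this property on their brightest probe Srebf1 ranked 8 by increase. The genes next to it in that order were Atp2b2, a plasma membrane calcium pump gene, at 3.21, and Cyp4f39, a cytochrome P450 gene, at 3.25 above it, and Mthfsd at 3.14 and Fasn, the fatty acid synthase gene, at 3.02 below it. With 1 array per group such likeness rests on 1 difference, and the steps between these neighbours are of the size of the spot SD of Srebf1. The difference of Srebf1 was between 2.60, under the normexp background correction, and 3.26, with scaling by the median.

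Mlxipl, the gene of ChREBP, was read by 2 probes listed for the same transcript, NM_021455. The brighter probe had signals of 11879 upon fasting and 20699 upon feeding, a difference of 0.83 with a spot SD of 0.08. The dimmer probe had 252 and 247, a difference of 0.14 after normalization with a spot SD of 0.13. The brighter probe thus moved by about 10 times its spot SD, with 5.23% of genes showing a larger increase, and the dimmer one by about 1. The gap between the probes was 0.68 on the log2 scale, with a spot SD of 0.16 for the gap, and the mean of the probes was 0.49. Scaling by the median put the brighter probe at 1.04, past 2-fold.

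Mlx, the partner that ChREBP needs to bind DNA, was higher upon feeding by an amount like that of the brighter Mlxipl probe. Its probe, for NM_011550, had signals of 1145 and 1841. The difference was 0.74, or 1.67-fold, with a spot SD of 0.11. It lay between 0.67 and 0.92 under the scalings and background corrections tried, and 6.76% of genes had a larger increase.

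Both LXR genes were read. Nr1h3, which encodes the LXRα of hepatocytes and macrophages, had 2 probes for NM_013839. The brighter went from 12184 upon fasting to 15027 upon feeding, a difference of 0.33 with a spot SD of 0.08. The dimmer went from 2054 to 3469, a difference of 0.79 with a spot SD of 0.09. Both probes were higher upon feeding, with a gap of 0.46 between them against a spot SD of 0.12. Kupffer cells, the macrophages of the liver, also express Nr1h3. Their 6 markers had a median difference of -0.17 and summed signals, not scaled between the arrays, of 48957 and 38366. The part of these cells in the result was not tested. Nr1h2, which encodes the widely expressed LXRβ, had signals of 2651 and 2439. Its difference was -0.07, smaller than its spot SD of 0.09, and it was 0.11 with scaling by the median, so that no direction can be given.

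**Figure D2:**
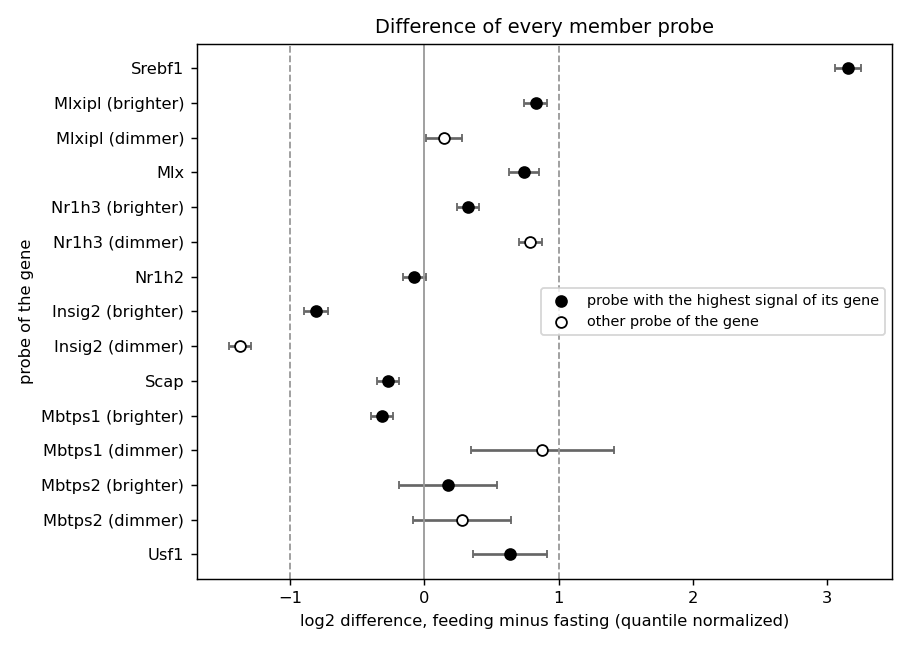
Log2 difference, feeding minus fasting, after quantile normalization (x axis) for every probe of the 10 genes (y axis), filled for the brightest probe of a gene and open for the other; bars are the SD of a difference between single spots of similar signal, dashed lines mark 2-fold. Srebf1 lies at 3.15 and the dimmer Insig2 probe at -1.38, and the bars of both Mbtps2 probes span 0.

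Insig2, one of the proteins that hold the SCAP complex in the endoplasmic reticulum, had the largest decrease of the set. The probe for NM_133748 went from 41041 upon fasting to 22958 upon feeding, a difference of -0.81 with a spot SD of 0.09. The probe for NM_178082 went from 10326 to 3949, a difference of -1.38, or 2.60-fold lower, with a spot SD of 0.08. Both probes were lower upon feeding, and 7.21% of genes had a larger decrease than the brighter one. Of the 14 member probes well above background on both arrays, 2 were past 2-fold, the Srebf1 probe and this one, against 7.58% of the 18614 such probes of named genes. The gap between the Insig2 probes was 0.57, with a spot SD of 0.12, and the probes are listed for different transcripts of the gene. The dimmer probe stayed past 2-fold under every scaling and background correction tried, with the smallest size, -1.15, when scaled by the median.

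The other INSIG gene went the opposite way. Insig1, which is itself switched on by SREBPs, had signals of 133 and 288, a difference of 1.30; under the normexp correction it was 0.77. The INSIG genes thus had differences of opposite sign upon feeding in these pools.

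The escort and the proteases had small differences. Scap, whose protein carries SREBPs to the Golgi, had signals of 6700 upon fasting and 5440 upon feeding, a difference of -0.27 with a spot SD of 0.08, which was -0.07 with scaling by the median. Mbtps1, the site-1 protease gene, had signals of 7242 and 5711 on its brighter probe. That difference was -0.32 with a spot SD of 0.08, and -0.11 with scaling by the median. The dimmer probe of Mbtps1 had 13.3, not well above background, and 21.9, at least 1.60-fold higher upon feeding, which is the opposite direction at a signal where the spot SD was 0.53. The mean of its probes was 0.28.

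Mbtps2 and Usf1 were dim. The probes of Mbtps2, the site-2 protease gene, had 33.6 and 32.2, and 31.8 and 33.1, in the order fasting and feeding. Quantile normalization turned these into differences of 0.17 and 0.28, both below the spot SD of 0.36, and a change was not detectable at these signals. Usf1 had 40.8 upon fasting and 54.3 upon feeding. Its difference was 0.64 with a spot SD of 0.28, and 0.14 under the normexp correction, which compresses dim signals.

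**Figure D3:**
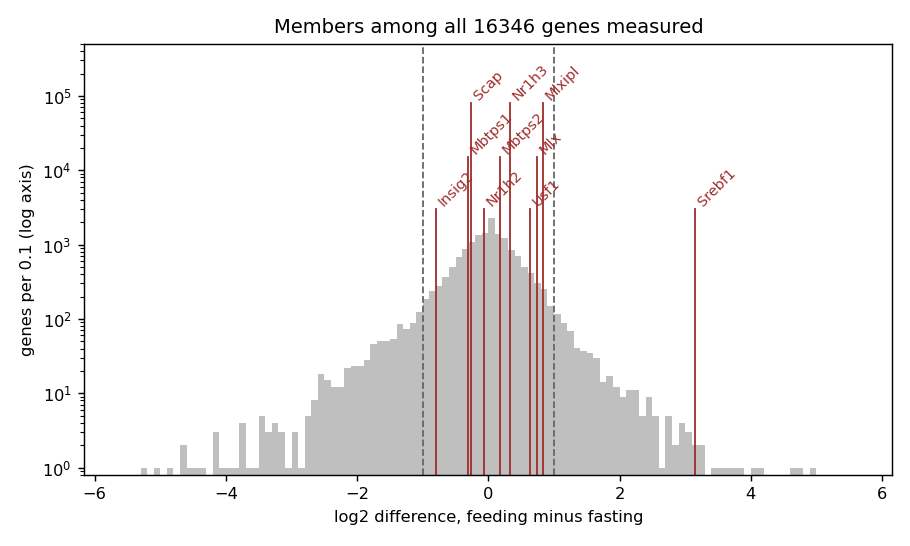
Number of genes per 0.1 (y axis, log scale) by log2 difference, feeding minus fasting (x axis), for the 16346 genes measured, with the 10 members marked by red lines, whose heights only spread the names; dashed lines mark 2-fold. Srebf1 lies in the sparse right tail at 3.15, and the other members lie between -0.81 and 0.83.

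Over the 10 genes, 6 had positive and 4 negative differences. Their median was 0.25, where the median over all genes was 0.00. The median size of a member's difference, without its sign, was 0.48, and that over all genes was 0.27. The figure over all genes includes 1831 with a bound, whose differences the bound could alter or set to 0. The brightest probes of the members had no bound, so these medians are not wholly alike in kind. These are descriptions of 2 arrays.

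The other genes of the pathways were taken from lists written from general knowledge, with the members left out. The lists were chosen with earlier results of these data known, so their counts are descriptions and not independent evidence. In all, 129 of 130 listed genes were measured, of which 21 were higher upon feeding by 2-fold or more and 11 were lower by as much. Over all genes measured, 3.29% were higher and 4.77% lower by as much.

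Of the SREBP1 target genes, 9 of 19 were past 2-fold higher and 1 lower, with a median of 0.97, next to 3.29% and 4.77% of all genes. Under normexp 7 were higher and 0 lower. The median is the value of Acly, whose other probe was at -0.80. Acaca, counted as higher at 1.22, had other probes at -0.41 and 1.05. Fasn went from 142 upon fasting to 1036 upon feeding, a difference of 3.02 that was 2.24 under normexp, where Srebf1 was at 2.60. Mid1ip1, an activator of acetyl-CoA carboxylase, went from 2203 to 17242, a difference of 2.99. Pnpla3, which encodes a lipid droplet protein, had 26.1 and 182, a difference of 2.99 that was 1.14 under the normexp correction, and 1.66 on its other probe. These lipogenic genes were among those closest to Srebf1 in size. Pnpla5 was not well above background upon fasting and was at least 5.31-fold higher (0.71 on the log2 scale under normexp), Thrsp was higher by 2.05 and Elovl6, the elongase of saturated fatty acids, by 1.98. The gene past 2-fold lower was Gpam, which encodes a glycerol-phosphate acyltransferase, at -1.01; it was not past 2-fold with scaling by the median (-0.97), under normexp (-0.58) or without background subtraction (-0.76). Scd1 (-0.83), Fads1 (-0.62), Elovl5 (-0.61), Acacb (-0.52), Fads2 (-0.47), Acss2 (-0.23) and Slc25a1 (-0.05) also lay below 0, not past 2-fold. Gpam, Acly, Acaca and the genes just listed were named after their values were seen.

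Of the ChREBP target genes, 4 of 19 were past 2-fold higher and 2 lower, with a median of 0.38, next to 3.29% higher and 4.77% lower of all genes. Under normexp 1 was lower, and with the mean of a gene's probes 3 were lower. Txnip was at -0.97, and at -1.86 on its other probe. Arrdc4 was at 0.83, and at -0.44 on its other probe. Txnip and Arrdc4 were named after their values were seen. Tkfc, which phosphorylates products of fructose, went from 15541 to 49368, a difference of 1.72. Pklr, the liver pyruvate kinase gene, went from 108 to 224, a difference of 1.26, which was 0.78 under normexp. Klf10 was higher by 1.04 and Gpd1, the glycerol-phosphate dehydrogenase gene, by 1.01. Those 2 lay just past the threshold, and Gpd1 was at 0.97 without scaling. G6pc, the glucose-6-phosphatase gene of glucose output, went from 51477 to 14639, a difference of -1.77, and Fgf21, a fasting hormone gene, went from 188 to 80.7, just past 2-fold lower; it was not past 2-fold with scaling by the median (-0.99), under normexp (-0.43) or without background subtraction (-0.59).

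Of the LXR target genes, 0 of 17 were past 2-fold higher and 1 lower, with a median of -0.28. The shares over all genes were 3.29% higher and 4.77% lower. The lower gene was Abcg8, a subunit of the sterol exporter, with signals of 331 and 103 and a difference of -1.49, which was -0.93 under normexp. Lpcat3 was at -0.84, Rnf145 at 0.71, Abca1, the cholesterol exporter to HDL, at 0.61 and Mylip, which marks the LDL receptor for degradation, at -0.58; none of these was past 2-fold. A second probe of Mylip was at -2.33. Srebf1 itself, a known LXR target, was counted as a member and not in this list.

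Of the SREBP2 target genes, which serve cholesterol synthesis and uptake, 4 of 21 were past 2-fold higher and 0 lower, with a median of 0.31. The shares over all genes were 3.29% higher and 4.77% lower, and under normexp 2 genes of this list were higher. Mvd, of the mevalonate pathway, went from 62.8 to 349, a difference of 2.66 that was 1.44 under normexp. Stard4, a sterol carrier gene, was at 1.64 and Insig1 at 1.30. Acat2 was at -0.98 and Nsdhl at -0.88, not past 2-fold. Srebf2, the gene of SREBP2, had signals of 284 and 147, a difference of -0.75, and -0.53 on its other probe. It lay on the other side of 0 from Srebf1.

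**Figure D4:**
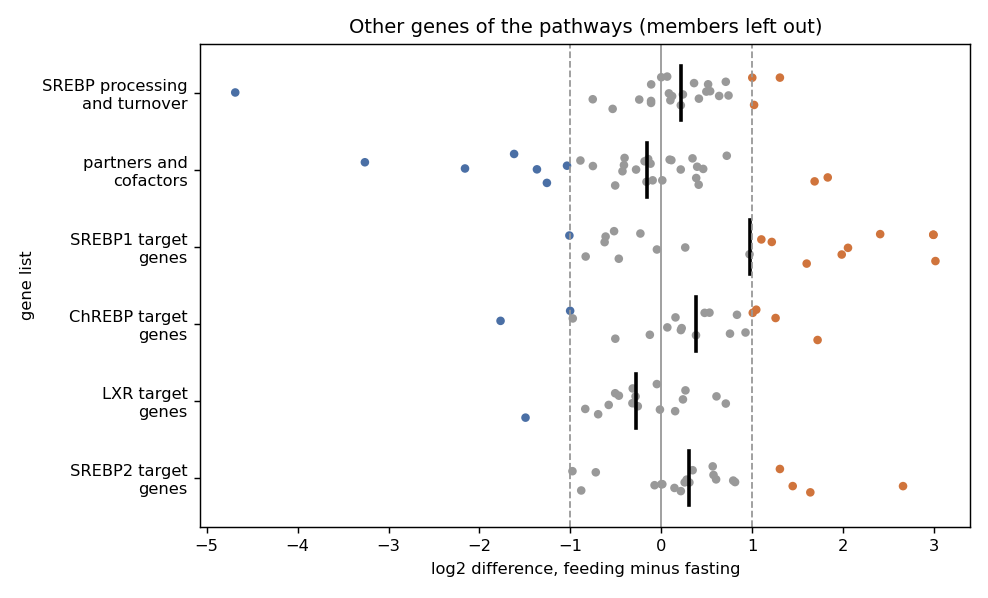
Log2 difference, feeding minus fasting (x axis), of every measured gene of the 6 pathway lists (y axis; points are spread vertically only to be seen), orange if 2-fold higher, blue if 2-fold lower and grey otherwise; black bars are medians and dashed lines mark 2-fold. The SREBP1 targets have the highest median, 0.97, and the LXR targets the lowest, -0.28. The value of 0.97 is that of Acly, whose other probe was at -0.80.

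Among the regulators of SREBP processing and turnover, 3 of 25 were past 2-fold higher and 1 lower, with a median of 0.21. The shares over all genes were 3.29% higher and 4.77% lower. Lpin1, which encodes the phosphatidate phosphatase lipin 1, also known to act on nuclear SREBP, went from 6283 upon fasting to 227 upon feeding, a difference of -4.69, and of -4.05 under normexp. Besides Insig1, the higher genes were Sec23b, of the vesicle coat that carries SCAP to the Golgi, at 1.02, and Hsp90b1, an endoplasmic reticulum chaperone, which went from 35452 to 68248, just past 2-fold. Hspa5, another chaperone, was at 0.74. Without scaling between the arrays, Sec23b (0.99) and Hsp90b1 (0.94) were not past 2-fold. Sec23b was also at 0.95 under normexp and 0.99 without background subtraction, and under normexp 1 gene of this list was past 2-fold higher.

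Among the partners and cofactors, 2 of 30 were past 2-fold higher and 6 lower, with a median of -0.15. The shares over all genes were 3.29% higher and 4.77% lower. Under normexp 1 gene of this list was higher and 3 were lower. Ppargc1a, the coactivator of the fasting response, went from 1434 to 135, a difference of -3.26 that was -2.45 under normexp, and its other probe was at -3.48. Ppargc1b, a coactivator of SREBP1, had 133 and 37.3, a difference of -1.62 that was -0.65 under normexp. Mxd1, whose protein dimerises with Max and Mlx, was at -2.16, and at -0.79 on its other probe. Mga, a partner of Max, was at -1.37, and at -0.93 under normexp. Bhlhe40, a transcriptional repressor, went from 1525 to 5259, a difference of 1.83. Smarcd3, of a chromatin remodelling complex, was at 1.69 with signals of 22.7 and 63.8, and at 0.43 under normexp. The closest relatives of members on the list, named after their values were seen, were Usf2 at -1.26 and Mlxip, the gene of MondoA, at -1.04; their other probes were at -0.08 and -0.04, so that probes of a gene differed here as they did for Mlxipl.

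**Figure D5:**
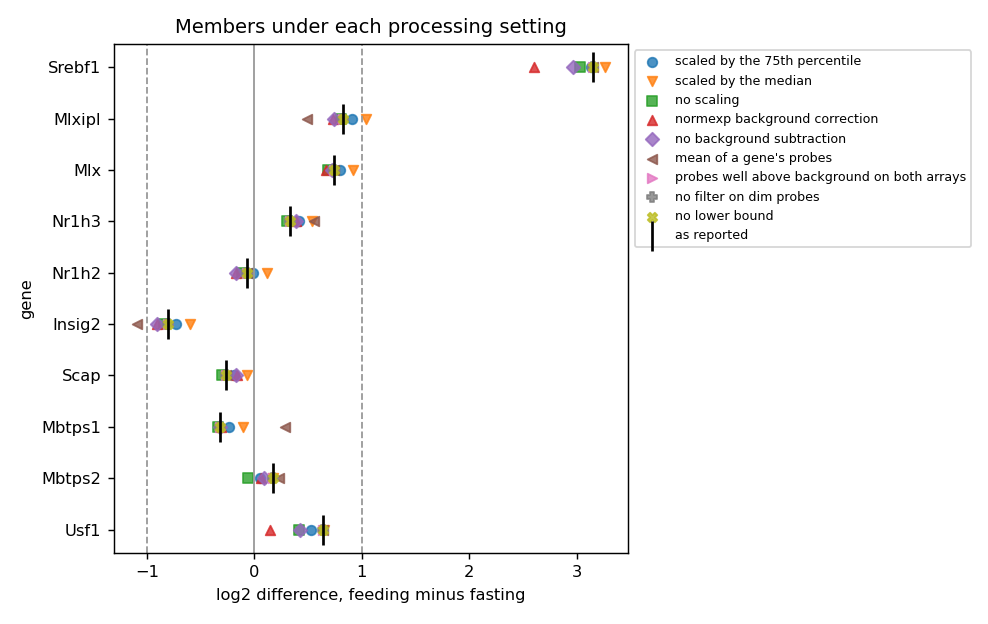
Log2 difference, feeding minus fasting (x axis), of the brightest probe, or of the mean of the probes, of each of the 10 genes (y axis) as reported (black bar) and under 9 other settings (symbols); dashed lines mark 2-fold. Srebf1 stays between 2.60 and 3.26, while Nr1h2, Mbtps1 and Mbtps2 fall on both sides of 0.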

How the data were processed

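Total RNA of 1 pool of 3 livers per group was labelled with Cy3 and hybridised to Whole Mouse Genome arrays, and the authors extracted spots with Feature Extraction 11.0.1.1. The deposited files hold intensities for each spot: processed signals after background subtraction, raw medians and local background, with no normalization between arrays. The value table of the series equals the mean local background in all 44397 spots of each array (relative tolerance 1e-06) and was not used further.

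Control and outlier spots were left out, log2 processed signals were averaged over the spots of a probe, and the 39402 probes were quantile normalized. The study's methods name quantile normalization of the raw data in GeneSpring; here it was applied to these background-subtracted values, so the inputs differ. Of these, 27218 (69.1%) were named through RefSeq transcripts of GRCm38.p6; probe positions are not given, since the array design names an older build. A gene was represented by its brightest probe and measured where this stood well above background in 1 pool or both. Where it was not on 1 array, the dim side was raised to the lowest signal well above background there, if below it. Where the dim side was the lower one, the fold is a bound. Where it was the higher one, raising it enlarged the difference, and the fold is no bound. For example Ak5, with log2 values of 3.37 upon fasting and 2.79 upon feeding, was given a difference of -1.07. The count of genes lower by 2-fold includes this gene. A bound that turned the direction of a difference was counted as no change. With 1 array per group no test was run, and the number of arrays limits the precision.

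All members and, of each pathway list, up to 6 genes with the largest change are named, with the 4 genes next to Srebf1 in change. Some genes that this rule names are not reported here, though they are counted in their lists. The members and lists were chosen with earlier results of these data known. Alternatives were scaling by the 75th percentile, by the median or not at all, normexp (offset 50, limma 3.58.1 in R 4.3.3) on raw medians, no background subtraction, the mean of a gene's probes, other filters on dim probes, no bound, and thresholds of 1.5-fold and 3-fold. The procedure was tested on simulated data, with the same noise at all signals and changes placed only in genes without a bound. That simulation does not cover the larger spread of dim probes or the calls of genes with a bound. Python 3.11.15, numpy 2.4.6 and pandas 2.3.3 were used.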

Additional observations from a re-analysis of the deposited data

How the results depend on the processing

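Srebf1 was past 2-fold under every alternative, and also at a threshold of 3-fold. The count of the 10 genes past 2-fold was 2 in place of 1 with scaling by the median (2 higher, Srebf1 and Mlxipl) and 2 with the mean of a gene's probes (1 of them lower, Insig2), and 5 at 1.5-fold, 4 higher and 1 lower. Their median of 0.25 was 0.36 with scaling by the median, 0.12 without scaling, 0.10 under normexp and 0.38 with the mean of probes. Of the 5 genes with 2 probes, 4 had both probes in the same direction, and 2 without scaling. Over all genes, 1316 were past 2-fold (537 higher, 779 lower), but 527 under normexp (215 and 312), 751 without background subtraction (329 and 422), 2366 with no filter on dim probes (1177 and 1189), 3621 at 1.5-fold (1714 and 1907) and 469 at 3-fold (158 and 311). Without the bound 876 were higher and 760 lower. The split was 717 higher and 649 lower with scaling by the median and 389 and 1050 without scaling. Of the pathway genes, 33 were higher and 23 lower at 1.5-fold, 12 and 5 at 3-fold, 14 and 5 under normexp, 18 and 15 without scaling and 23 and 8 with scaling by the median, against 21 and 11. Apart from the thresholds and filters, which by construction count other sizes or more genes, the cause of these shifts was not tested. No paired analysis was possible because each group had 1 array. The signal over background limits Mbtps2, Usf1 and the dimmer Mbtps1 probe, and with pools of mice on 1 array each no spread between mice can be given.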
